A study of Mus musculus with 4 samples.

Results

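Deaf1 occupancy at the genes of molecular chaperones and co-chaperones was measured in C2C12, an established myoblast line of the mouse, by ChIP-seq, the sequencing of DNA that precipitates with an antibody. The genes were selected by symbol, with no measured value in the rule: all protein-coding genes of GRCm38 named Hspa, Hspb, Hspd, Hspe, Hsph, Hsp90, Dnaja, Dnajb, Dnajc, Cct followed by a digit, or Tcp1, together with Bag1 to Bag6. They numbered 90 of 21774 protein-coding genes. This set of symbols was chosen with earlier results of these data known. The study comprised 2 libraries precipitated with an antibody to Deaf1 (Bethyl Laboratories, #A303-187A) and 2 input libraries without antibody, all from C2C12 cells cultured in DMEM with fetal bovine serum. No treatment or second condition is named. A line of this kind stands for muscle precursor cells in culture, and the labels do not say whether the replicates came from separate cultures. The spread between the libraries may therefore be technical.

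Chaperones are proteins that help other proteins reach and keep their folded shape. HSP70 proteins bind exposed stretches of a client with the help of J-domain proteins (the DNAJ families), which deliver clients and stimulate the ATPase. Nucleotide exchange factors, among them several BAG proteins and the HSP110 proteins, reset the cycle. HSP60 with its lid HSP10 works inside mitochondria, and the CCT ring (also called TRiC) folds actin and tubulin in the cytosol. Deaf1 is a DNA-binding protein of the SAND domain family whose reported recognition sequence centres on TTCG.

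The authors' combined list, made from both ChIP libraries, held 1545 regions on the assembled chromosomes. A gene was counted as bound where any base of a region lay within 1 kb of the first or last base of the gene's annotated span. By this rule 16 of the 90 chaperone genes were bound (17.8%, exact binomial 95% interval 10.5% to 27.3%), where 7.02% of all protein-coding genes were. The bound genes were Hspa4, Hspa4l, Hspbp1, Hspd1, Hspe1, Dnajb6, Dnajb9, Dnajb11, Dnajc2, Dnajc14, Dnajc24, Cct2, Cct7, Tcp1, Bag1 and Bag6. In the peak list of replicate 1 alone 17 were bound (18.9%), against 7.56% of all protein-coding genes. In that of replicate 2, 25 were bound (27.8%), against 11.3%. The share was therefore above the share of all genes in each list. The interval covers counting of genes only. Binding was not compared with expression, which was not measured in these files.

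The bound genes came from 7 of the 10 families, grouped by symbol, as the plot of shares by family shows. Symbol and protein type differ for some of them. The bound Hspb gene is Hspbp1, which is no small heat shock protein, and Hspa4 and Hspa4l encode HSP110-type proteins. The chaperonin pair of mitochondria, Hspd1 and Hspe1, was bound in full, through 1 region that both genes share. Of the 10 CCT genes 3 were bound, of the 6 BAG genes 2, of the 13 Dnajb genes 3, of the 13 Hspa genes 2, of the 28 Dnajc genes 3 and of the 10 Hspb genes 1. None of the 4 Dnaja genes, of the 3 Hsp90 genes or of the single Hsph gene, Hsph1, had a combined region. Replicate 2 alone raised CCT to 6 of 10, Dnajb to 5 of 13, Dnajc to 6 of 28 and Dnaja to 1 of 4. Replicate 1 alone changed only Hspa, to 3 of 13. The families are small, and the 95% intervals of their shares overlap (6.67% to 65.2% for CCT and 2.27% to 28.2% for Dnajc), so no order among them is drawn.

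**Figure D1:**
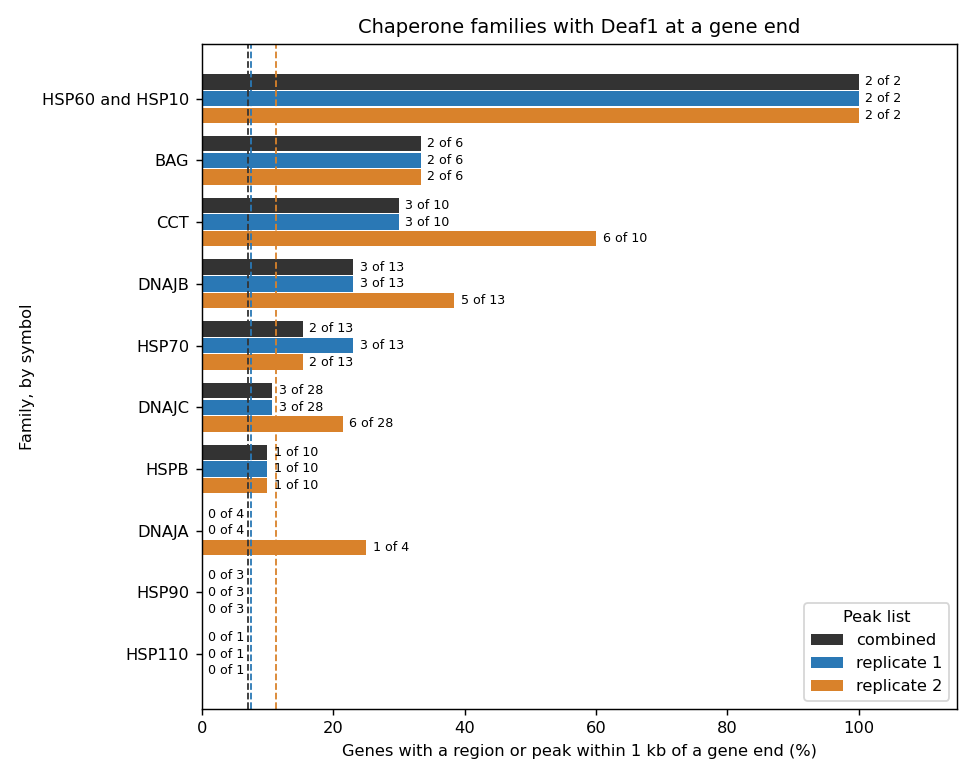
Bars give the percentage of genes with a Deaf1 region or peak within 1 kb of a gene end, in each family by symbol. They cover the combined list and each replicate's own list, with the counts printed beside them. Dashed lines mark the percentage of all protein-coding genes in the same list (7.02%, 7.56% and 11.3%): the bars of HSP60 and HSP10, BAG, CCT, DNAJB, HSP70 and DNAJC lie beyond the line of their own list in all 3 lists, while HSP90 and HSP110 (Hsph1) have no bar.

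The 16 bound genes carried 16 distinct regions, because Hspd1 and Hspe1 share 1 and Bag6 has 2. Each region was built from a single peak per library, and the summits of both libraries lay 1 to 29 bp apart. The strength of a region is given as the fold enrichment of ChIP over the local background at the summit, as the authors' peak caller wrote it, and as the number of ChIP fragments stacked there. Most of the regions were weaker than the middle of those at other genes. The median of the mean fold enrichment was 7.25, against 8.06 at the 1233 regions at the ends of other protein-coding genes, a value that 5 of the 16 exceeded. In replicate 1 the medians were 7.59 and 7.51, and in replicate 2 they were 7.12 and 8.45. The highest mean was 12.1 at Dnajc24, whereas the other genes reached 46.4. No chaperone region was in the top 10% of peaks by fold in both libraries. The fold was higher in replicate 2 at 8 of the 16 regions, compared with 64.8% of the regions at other genes. At all 16 regions the 95% Poisson intervals of the fragment counts overlapped between the libraries. These intervals are wide at such counts and library totals are unknown, so the overlap does not show that the libraries agree.

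**Figure D2:**
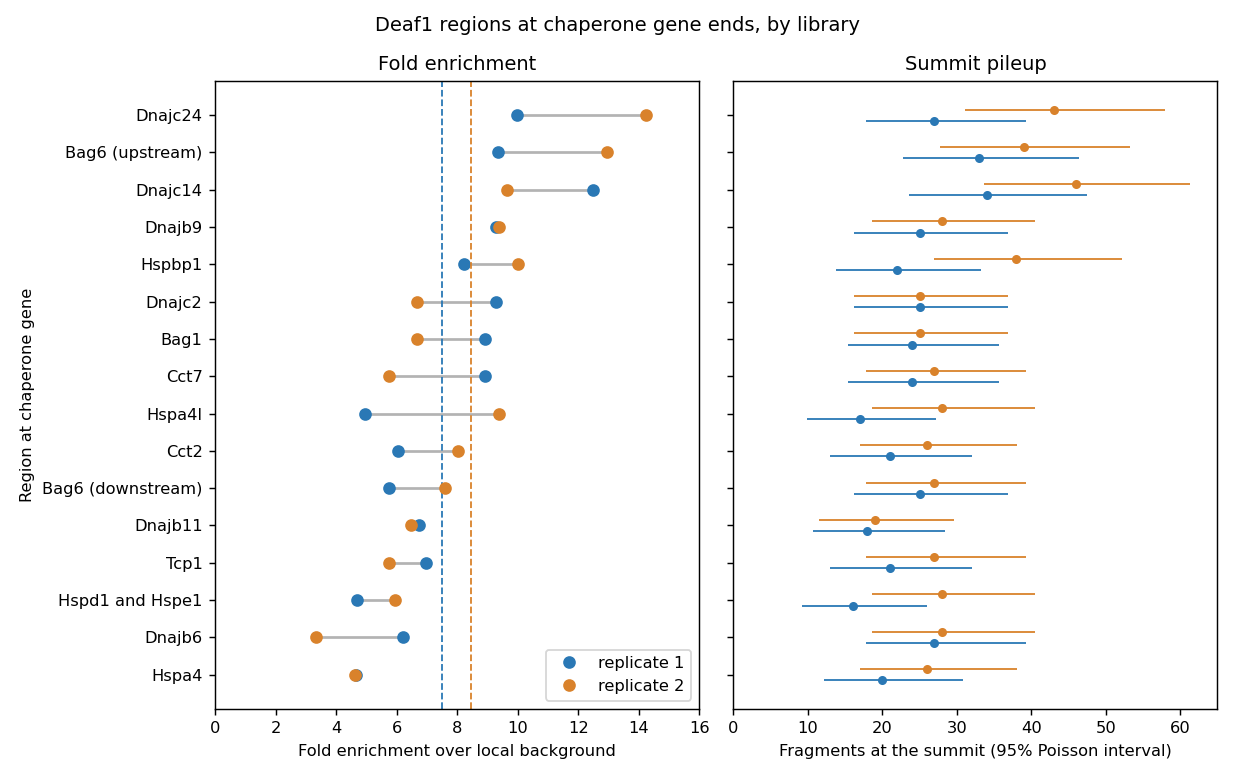
For the 16 regions, ordered by mean fold enrichment, the left panel plots the fold in each library (grey lines join the pair, and dashed lines give the medians of regions at other genes, 7.51 and 8.45). The right panel plots the fragments at the summit with exact 95% Poisson intervals, which overlap between the libraries in every row.

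Repeatability was judged from the authors' score of the irreproducible discovery rate (IDR), the estimated chance that a region's rank does not repeat between replicates. A score of 540 stands for an IDR of 0.05. Of the 16 regions, 5 reached it (31.3%), against 42.3% of regions at other genes. They belong to Bag6, Dnajc14, Dnajc24, Hspbp1 and Dnajb9. With this threshold 5 of 90 chaperone genes were bound (5.56%, interval 1.83% to 12.5%), where 3.15% of all protein-coding genes were, a share within that interval. The lowest score of the list, 121, was held by 4 regions: those at Hspa4, Dnajb6, Dnajb11 and the shared one at Hspd1 and Hspe1. Most chaperone regions thus lay under the score of 540.

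Among the HSP70 genes, both bound members encode HSP110-type proteins, which act as exchange factors for HSP70 in the cytosol. The region of Hspa4 (chr11:53300472-53300772) had a fold enrichment of 4.65 in replicate 1 and 4.63 in replicate 2, a mean of 4.64 ± 0.018 (SD, n = 2) and the lowest of the 16. Its summits held 20 fragments (95% interval 12.2 to 30.9) and 26 fragments (16.98 to 38.1). At Hspa4l (chr3:40745127-40745506) the fold was 4.95 in replicate 1 and 9.39 in replicate 2, a mean of 7.17 ± 3.1 (SD, n = 2), with 17 and 28 fragments. The fold at Hspa4 was nearly equal in both libraries, but low, and its IDR of 0.511 is the value of the lowest score in the list. At Hspa4l the folds differed by a ratio of 1.90, and the IDR was 0.302. The classical HSP70 genes had no combined region. Hspa8, which encodes the constitutive cytosolic HSP70, had a peak in replicate 1 only (chr9:40800931-40801066, 4.997-fold, 13 fragments), with its summit 300 bp outside the gene span. The nearest peak of replicate 2 lay 608577 bp from it. For Hspa5, the HSP70 of the endoplasmic reticulum, the nearest combined region was 49627 bp from a gene end. The heat-inducible genes Hspa1a and Hspa1b had no peak in any list. They are near-identical copies, and how reads with several places in the genome were treated is not given in the sources used here.

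The stretch before the start of Hspa4 that lies in the region is printed because its summit falls within it, with each TTCG or its reverse complement CGAA in capitals (chr11:53300480-53300729, minus strand, GRCm38.p6, RefSeq, from 250 bases to 1 base before the start):
Hspa4 upstream: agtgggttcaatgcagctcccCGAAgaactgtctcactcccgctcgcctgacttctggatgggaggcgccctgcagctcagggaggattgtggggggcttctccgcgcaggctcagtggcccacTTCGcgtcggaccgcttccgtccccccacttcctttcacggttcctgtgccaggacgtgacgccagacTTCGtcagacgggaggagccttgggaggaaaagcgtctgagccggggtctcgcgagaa
It holds 3 matches, and the nearest has its middle 25.5 bp from the replicate 2 summit.

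The mitochondrial chaperonin genes Hspd1 and Hspe1 lie head to head, with overlapping starts. Their shared region (chr1:55087909-55088170) had a fold enrichment of 4.68 in replicate 1 and 5.96 in replicate 2, a mean of 5.32 ± 0.91 (SD, n = 2). The summits held 16 fragments (9.15 to 26.0) and 28 fragments (18.6 to 40.5). The replicate 2 summit lay 45 bp before the start of Hspe1 and 140 bp inside the transcribed side of Hspd1, so the region cannot be given to 1 of them. No TTCG or CGAA was found in the region, all 262 bases of which are covered by the RefSeq windows. A heat shock element, the binding sequence of the heat shock factors, was present instead. It was searched in such windows as exact GAA, TTC and GAA in turn with NN between neighbours, or the reverse complement. The site is printed on the strand of Hspe1 with the matched bases in capitals (chr1:55088053-55088082, GRCm38.p6), beside those of the other chaperone genes with a match, Dnajb6 (chr5:29735844-29735873) and Hsph1 (chr5:149636287-149636316, minus strand):
Hspe1 site: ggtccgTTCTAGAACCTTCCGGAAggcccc
Dnajb6 site: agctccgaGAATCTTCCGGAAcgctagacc
Hsph1 site: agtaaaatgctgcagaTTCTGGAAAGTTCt
In Hspd1 and Hspe1 the 18 capitals hold 2 overlapping matches, with their middle 35.5 bp from the replicate 2 summit. At Dnajb6 the match lay outside the region, 93 bp from the summit. Hsph1 had a match and no peak: its nearest combined region was 432137 bp from a gene end. Windows from 250 bases before to 50 bases after a start held such an element in 0.517% of 21263 windows of protein-coding genes, and in 6 of 94 windows of chaperone genes (6.38%). Those 6 windows belong to 4 genes and partly overlap. Hsp90aa1, Hsp90ab1 and Hspa8 had no listed window and were not searched. Elements that depart from the exact pattern were not counted, and Hspa1a, Hspa1b, Hspb1 and Dnajb1 had no exact match in their windows. The list of genes with an element is therefore incomplete. A match describes these letters only, and binding of a heat shock factor was not measured.

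For the chaperonin CCT, a ring of different subunits, 3 subunit genes had combined regions. At Tcp1, the gene of the alpha subunit (chr17:12916101-12916363), the fold was 6.97 in replicate 1 and 5.75 in replicate 2, a mean of 6.36 ± 0.86 (SD, n = 2), with 21 and 27 fragments. Its summit, 39 bp before the start, also lies within the annotated span of Mrpl18. The region of Cct2 (chr10:117063776-117063967) had 6.05 and 8.02, a mean of 7.03 ± 1.4 (SD, n = 2), with its summit 24 bp after the start. Cct7 (chr6:85451877-85452036) had 8.92 and 5.75, a mean of 7.34 ± 2.2 (SD, n = 2). This summit lay 452 bp inside Cct7 and closer to an end of Pradc1, so its region cannot be given to 1 gene. All 3 lay below the median of other genes in at least 1 library. None of them reached a score of 540, with 266, 412 and 230.

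A further 3 CCT genes had a peak only in replicate 2. Cct4 had the strongest of them, 5.96-fold with 28 fragments (18.6 to 40.5), 23 bp from the first base of the gene (chr11:22990523-22990620). Cct6a had 4.86-fold with 14 fragments, and Cct5 3.43-fold with 19 fragments over a background of 4.84. With these, 6 of 10 CCT symbols carried a peak in replicate 2. Cct3, Cct8, Cct6b and Cct8l1 had none in any list. At Tcp1 a TTCG had its middle 16.5 bp from the summit of replicate 2 (chr17:12916259-12916288, plus strand, TTCG in capitals):
Tcp1 site: tccgttttccactTTCGcgcctttcttcta
In Cct2, by contrast, 85.9% of the region was covered by the listed windows and held no TTCG or CGAA.

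The J-domain proteins had 6 bound genes, all of them named Dnajb or Dnajc. Dnajc24, which takes part in the synthesis of diphthamide on translation elongation factor 2, had the strongest region of all chaperone genes (chr2:106003216-106003387). The fold was 9.99 in replicate 1 and 14.2 in replicate 2, a mean of 12.1 ± 3.0 (SD, n = 2), with 27 fragments (17.8 to 39.3) and 43 fragments (31.1 to 57.9). The peak of replicate 2 ranked 170 of 3126. Its summit was 265 bp after the start, and no other gene end was within reach. Among the J-domain genes Dnajc14, which encodes a protein of the endoplasmic reticulum membrane, came next. It had 12.5 and 9.65, a mean of 11.1 ± 2.0 (SD, n = 2), at chr10:128805449-128805643. Its replicate 2 summit, 6 bp before a listed start, was closer to an end of Tmem198b than to the end of the Dnajc14 span. Both regions had IDR values near 0.015 (0.0150 and 0.0146).

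Dnajc2 encodes a J-domain protein that works at the ribosome. Its region (chr5:21785179-21785376) is shared with the proteasome gene Psmc2, whose end was the nearer, and had 9.28 and 6.66, a mean of 7.97 ± 1.8 (SD, n = 2). The fragment count was 25 in both libraries, while the background was 1.80 in replicate 1 and 2.90 in replicate 2. The lower fold in replicate 2 thus came with a higher background and the same number of fragments. Dnajb6, known for holding back protein aggregation and for its link to limb girdle muscular dystrophy, showed the same at chr5:29735884-29735995. Its fold was 6.20 and 3.32, a mean of 4.76 ± 2.0 (SD, n = 2), with 27 and 28 fragments over backgrounds of 3.51 and 7.74.

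The remaining bound pair, Dnajb9 and Dnajb11, encodes J-domain partners of Hspa5 in the endoplasmic reticulum. Dnajb9 (chr12:44210149-44210331) had 9.28 and 9.39, a mean of 9.33 ± 0.078 (SD, n = 2), with 25 and 28 fragments and an IDR of 0.0371. Dnajb11 (chr16:22857643-22857765) had 6.75 and 6.48, a mean of 6.61 ± 0.19 (SD, n = 2), with 18 and 19 fragments. The folds of both libraries were close at either gene, while the IDR of Dnajb11 was 0.511. The region of Dnajb11 was also at an end of Tbccd1, which was nearer to its summit. Their upstream stretches inside the regions are printed because each holds its summit and they differ in TTCG, in capitals (chr12:44210149-44210318, minus strand, and chr16:22857696-22857765, plus strand, GRCm38.p6, RefSeq):
Dnajb9 upstream: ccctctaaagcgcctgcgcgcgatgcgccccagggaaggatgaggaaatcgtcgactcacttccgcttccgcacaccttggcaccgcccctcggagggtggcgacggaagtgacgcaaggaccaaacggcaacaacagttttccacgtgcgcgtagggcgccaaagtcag
Dnajb11 upstream: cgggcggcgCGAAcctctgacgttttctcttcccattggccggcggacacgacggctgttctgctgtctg
Dnajb9 had the stronger region of the pair with no match in these 170 bases. Dnajb11 had 1 match, 19.5 bp from its summit. The full listed windows, which reach past these stretches, held 2 matches at either gene.

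Another 6 J-domain genes had a peak in replicate 2 only. Dnajc7, which also binds HSP90, was the strongest at 7.80-fold with 26 fragments (16.98 to 38.1). Its peak, shared with an end of Nkiras2, lay 2948 bp from the nearest peak of replicate 1. Dnajb1, the main partner of inducible HSP70, had 5.12-fold with 16 fragments and its summit at the listed start itself. Dnajc13, a protein of endosomes, had 5.18-fold with 15 fragments. The other 3, Dnaja1 (its peak also at an end of Aptx), Dnajb12 and Dnajc3, had 4.10, 4.10 and 3.91-fold with 15, 15 and 12 fragments. These were shallow peaks: over the 9 chaperone genes seen in replicate 2 only, the median was 15 fragments and 4.86-fold. At other genes with a replicate 2 peak and no combined region, the medians over 778 peaks were 20 fragments and 5.83-fold. Genes with a peak in replicate 2 only made up 10.0% of the chaperone genes and 4.17% of other protein-coding genes. The weakest summits listed held 10 fragments in either library, so a gene without a peak is one without a summit past the peak caller's threshold at this depth.

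Of the BAG genes, Bag6 had 2 regions on either side of its start. Bag6 handles newly made membrane and misfolded proteins. The upstream region (chr17:35134791-35135059) had 9.35 in replicate 1 and 12.95 in replicate 2, a mean of 11.2 ± 2.5 (SD, n = 2), with 33 and 39 fragments. The downstream region (chr17:35135329-35135519) had 5.76 and 7.58, a mean of 6.67 ± 1.3 (SD, n = 2), with 25 and 27 fragments. The upstream region was the higher in both libraries, and its score of 774 was the highest of the 16. Bag1, an exchange factor of HSP70 that also binds BCL2, had 8.92 and 6.66, a mean of 7.79 ± 1.6 (SD, n = 2), at chr4:40948429-40948575. That region was also at an end of Chmp5, the nearer of the pair. A second peak of Bag1 (chr4:40948249-40948344) was listed in replicate 2 only, with 4.53-fold and 13 fragments. The stretch of Bag1 before its start is printed because it holds the summit and no TTCG. It is 116 of the 147 bases of the region, and the rest was not searched (chr4:40948429-40948544, minus strand, GRCm38.p6, RefSeq):
Bag1 upstream: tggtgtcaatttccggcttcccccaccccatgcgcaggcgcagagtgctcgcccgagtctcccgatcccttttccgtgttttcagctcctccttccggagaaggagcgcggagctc
Hspbp1, an exchange factor that is no small heat shock protein despite its symbol, had 8.21 and 9.997, a mean of 9.10 ± 1.3 (SD, n = 2), with 22 and 38 fragments (chr7:4684924-4685123). Its replicate 2 summit was 1 bp before a listed start. Bag2, Bag3, Bag4 and Bag5 had no peak in any list.

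No peak was listed at the genes named Hspb followed by a digit or at the 3 genes with an Hsp90 symbol. None of Hspb1, Hspb2, Hspb3, Hspb6, Hspb7, Hspb8, Hspb9 and Hspb11 had a peak in any list, nor had Hspbap1, which shares the start of the symbol. For Hsp90aa1, the inducible cytosolic form, the nearest combined region was 192676 bp from a gene end. Hsp90ab1, the constitutive form, had its nearest peak in replicate 2, 3866 bp away, and its nearest combined region at 537664 bp. In all, 64 of the 90 genes (71.1%) had no peak at a gene end in any list, compared with 88.3% of other protein-coding genes.

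The regions of the bound genes lay near gene starts. RefSeq windows with strand and start were listed for 74 of the 90 genes. For the 16 pairs of gene and region with a listed start, the end nearest to the summit was the start in all 16. The distance from the summit to the nearest listed start had a median of 129.5 bp, and 14 of the 16 lay within 300 bp. Summits lay upstream of the nearest listed start in 11 of the 16. A listed start can lie inside the annotated span. Of the 11, the summits of Hspa4l, Dnajc14, Hspbp1 and Dnajb6 lay 894, 644, 206 and 53 bp inside their genes. In the replicate 2 list, all 8 single-library peaks with a listed start were upstream of it or on it. Of the 8, the summits of Dnajc7 and Dnajc13 lay 623 and 583 bp inside the annotated spans. These distances are limited by the 1 kb rule. Within 1 kb of a listed start, 15 chaperone genes (20.3% of those with one) and 1263 other genes (7.25%) had a region, so a place near the start was not particular to chaperones.

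**Figure D3:**
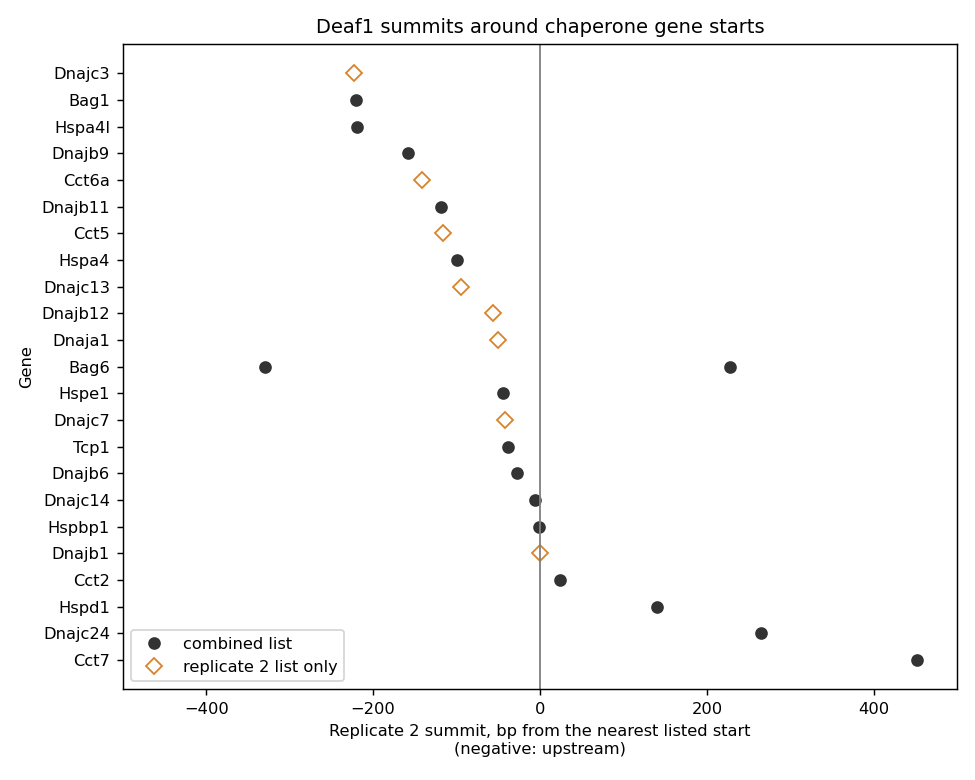
Each point gives the distance in bp from the replicate 2 summit to the nearest listed start of the gene, with negative values upstream. Filled circles are combined regions and open diamonds are peaks listed in replicate 2 only. The points run from 330 bp upstream (Bag6) to 452 bp downstream (Cct7).

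Shared gene ends were common. Of the 16 chaperone regions 6 were within 1 kb of the ends of 2 or more genes (37.5%), against 27.3% of regions at other genes. Chaperone genes also had a close neighbour more often, with another gene's end within 1 kb for 40.0% of them and for 24.7% of other genes. Among genes with such a neighbour, 19.4% of chaperone genes (7 of 36) and 15.4% of others were bound. Among genes without one, the shares were 16.7% (9 of 54) and 4.20%. When each region was given only to the gene with the nearest end, 10 chaperone genes remained bound (11.1%), against 5.53% of other genes.

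The base composition of the listed windows moved with binding. Windows of protein-coding genes that overlapped a combined region held a median of 23 CG dinucleotides in 300 bases, and those outside held 12. Chaperone windows held 24 (GC content 62.3%), and all windows of protein-coding genes 13 (56.3%). Among windows with 20 CG or more, a limit chosen after the values were seen, 14 of 59 chaperone windows overlapped a region (23.7%), and 11.9% of windows of other genes did. With 10 to 19 CG, 1 of 26 did (3.85%), against 8.34%. Windows were counted, not genes: the 15 chaperone windows that overlapped a region belong to 13 genes. Some of them overlap each other, as at Dnajb6, Dnajc14 and the pair Hspd1 and Hspe1. The part of base composition in the share of bound genes was not tested.

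TTCG was searched on both strands of the same windows. It was found in 60 of 94 chaperone windows (63.8%) and in 49.1% of all windows. The longer TTCGG, which contains TTCG, was found in 28.7% and 22.0%. Among all windows the share with TTCG was 71.9% where a region overlapped and 47.6% where none did. Among chaperone windows these shares were 66.7% (10 of 15, from 13 genes) and 63.3% (50 of 79), so the difference within chaperone windows was small. Counted within the regions themselves, 6 of 13 pairs of gene and region touched by a listed window held the sequence in the part that was covered: Tcp1, Dnajb11, Hspa4, Dnajc14, Hspa4l and Hspbp1. The other 7 held none there, with the shared region of Hspd1 and Hspe1 counted for each gene. Among the 7, the upstream region of Bag6 was covered for 36.1% of its bases, without its summit. The regions of Dnajc24, Cct7 and Dnajc2 and the downstream one of Bag6 had no covered base and were not searched. No count of regions with TTCG is given for other genes, so these matches and their distances to summits are descriptions only. Over all windows of protein-coding genes that overlapped a region, the mean was 1.47 matches per window. TTCG itself contains CG, so its count moves with the composition described above.

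Other genes of the same pathway were taken from a list of 41, grouped by role and chosen with earlier results of these data known. Of these 13 had a combined region (31.7%, interval 18.1% to 48.1%), where 7.02% of all protein-coding genes had one. A list of 18 partners and relatives of HSP90 held 7 of them, among them Ppid, Trap1, Ahsa1, Ttc4, Cdc37 and Chordc1. Trap1 is no co-chaperone but encodes the HSP90 of mitochondria, which the symbol rule does not take in, and the 3 genes with an Hsp90 symbol had none. Ahsa1, the activator of the HSP90 ATPase, had a mean fold of 9.87 ± 0.95 (SD, n = 2), and Cdc37, which brings kinases to HSP90, 6.60 ± 0.75 (SD, n = 2). Prefoldin and helpers of CCT had 4 of 9. Pfdn5, a prefoldin subunit, was the strongest with 10.3 ± 0.46 (SD, n = 2), and Pfdn2, Pfdn6 and Txndc9 were the others. The summits at Pfdn5, Pfdn2 and St13 were closer to an end of Myg1, Nit1 and Xpnpep3, so these regions cannot be given to 1 gene. Those of Ahsa1, Pfdn6 and Txndc9 also lay at an end of Vipas39, Wdr46 and Eif5b. The IDR was 0.200 at Stub1 and 0.511 at Cdc37, Chordc1 and Txndc9. A score of 540 was reached at 7 of the 41 genes. Of 10 partners of HSP70, St13 and Stub1 had a region, with means of 9.87 ± 1.1 and 7.13 ± 0.011 (SD, n = 2). None of the 4 heat shock factor genes had a peak in any list, and the nearest region to Hsf1, the main regulator of the heat shock response, was 37553 bp from a gene end.

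The chaperone share was not the highest of its kind, as the plot of gene lists shows. Of 40 genes with a proteasome symbol (Psma, Psmb, Psmc or Psmd with a digit, which takes in Psmc3ip, no subunit) 9 had a combined region (22.5%). Of 87 genes with a symbol Rpl or Rps and a digit, which takes in some that are no ribosomal proteins, 30 had one (34.5%). The interval of the chaperone share (10.5% to 27.3%) overlaps theirs (10.8% to 38.5% and 24.6% to 45.4%). The differences between the lists were not tested, and the share of bound genes was not shown to be particular to chaperones.

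**Figure D4:**
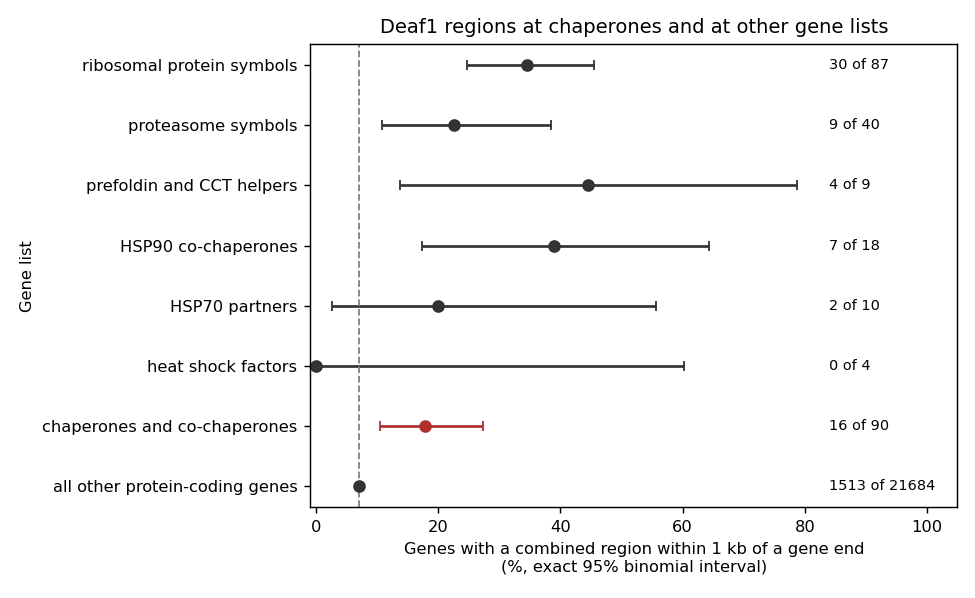
Points give the percentage of each list with a combined region within 1 kb of a gene end, with exact 95% binomial intervals and the counts at the right. The dashed line marks all protein-coding genes (7.02%). The 90 chaperone genes (red, 17.8%) lie beyond the line, and their interval overlaps those of the proteasome and ribosomal protein symbols.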

How the data were processed

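ChIP-seq with an antibody to Deaf1 was run on C2C12 cells in 2 libraries, with 2 input libraries (no file of the inputs was analysed here). Samples were grouped by title. Per the submitters' processing notes, BWA 0.7.17-r1198, MACS2 2.1.2 and FastQC 0.11.8 were used on mm10 (GRCm38). Their settings and the treatment of duplicates are not given in the sources used here. The labels' protocols name both formaldehyde fixation and native ChIP-seq. The deposited peak lists, called per library, give a fold enrichment (a ratio of ChIP to local background) and −log10 p and −log10 q values. The deposited combined list gives a score per region. Another 6 columns of it, without names, hold single-library values and were not used. Replicate 1 had 1860 peaks and replicate 2 had 3126, with genome-wide backgrounds of 1.80 and 2.09 fragments and median summits of 22 and 23 fragments. Library totals are unknown.

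Fragments at a summit were recovered as the whole number that fits the deposited fold and p under MACS2's formula. Exactly 1 fitted for 100% of peaks, and intervals on them cover counting error only. Gene spans came from the RefSeq table of GRCm38.p6, chromosomes 1 to 19, X and Y. A further 113 protein-coding genes whose coordinates are those of scaffolds were left out. A region's fold is that of its strongest overlapping peak (at least 1 bp) in each library. Coordinates are 1-based. With 1 group of libraries no test was possible, and lists are described by counts and exact (Clopper-Pearson) intervals. Named were every member with a region or with a peak in 1 library, a few fixed genes and pathway genes with a region, of which 1 is not reported here by name. Of 16 regions, the 15 strongest were to be given in full; Hspa4, the weakest, was added after its values were seen. Members and lists were chosen with earlier results of these data known. Counting and fragment recovery were checked on simulated data (Python 3.11.15, scipy 1.17.1, pandas 2.3.3).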

Additional observations from a re-analysis of the deposited data

How the results depend on the processing

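The number of chaperone genes with a combined region, 16, moved most with the score: with a score of at least 540 it was 5. The families by symbol with a bound gene then fell from 7 to 4, and the other pathway genes from 13 to 7. The median fold enrichment was 11.1 in place of 7.25. Counting only the gene with the nearest end gave 10. With 1 library left out, the count ran from 17 (replicate 1 alone) to 25 (replicate 2 alone), the families from 7 to 8, the pathway genes from 14 to 18 and the median fold from 7.12 to 7.59. With distances of 500 bp or 5 kb it was 14 or 20, and distance from the summit or the whole gene span left 16. The share of chaperone genes exceeded that of other genes in each of these settings, from 5.56% against 3.14% at the stricter score to 27.8% against 11.2% in replicate 2. Counting starts only gave 15, among genes with a listed start 20.3% against 7.25%. For the lists of single libraries, with a −log10 q of at least 5 the counts were 14 and 19. Of the counts of single families, 11 of 70 moved by more than 1.5 times and 59 did not. The 59 include all settings of Hsp90 and Hsph and most of Dnaja, families with no bound gene in the combined list. TTCG on the forward strand alone was found in 44.7% of chaperone windows and 31.1% of all windows. No paired analysis was possible because no input values were analysed here and the ChIP libraries form a single group. Depth limits single regions: the summits of chaperone regions held 16 to 46 fragments. At such counts the intervals are wide, and they overlapped between the libraries at all 16 regions.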
